A study of Homo sapiens with 6 samples.

Results

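Prostaglandin synthesis, breakdown and signaling were followed in human bronchial epithelial cells (HBECs) through 9 genes, taken by name from the 61228 gene names of the deposited tables: *PLA2G4A*, *PTGS1*, *PTGS2*, *PTGES*, *PTGES2*, *HPGD*, *PTGR1*, *PTGER2* and *PTGER4*. HBECs are an immortalized airway cell line, labelled wild type. All 6 libraries came from cells exposed to cockroach extract (CRE) for 24 h, 3 with CRE alone and 3 with CRE and VAF347, a small-molecule agonist of the aryl hydrocarbon receptor (AhR). The comparison therefore shows what VAF347 added to the response to CRE, and libraries of untreated cells or of VAF347 alone were not analysed here. The sources used here do not state whether replicates were separate cultures, so p-values measure the spread between these libraries, which may be technical.

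Prostaglandins are short-lived lipid signals made from arachidonic acid, which phospholipase A2 enzymes release from membranes. The cyclooxygenases turn it into PGH2, and terminal synthases convert PGH2 into PGE2, prostacyclin and other prostanoids. PGE2 leaves the cell, acts on receptors of the EP family, and is inactivated by a dehydrogenase and then by reductases. In the airway epithelium, PGE2 is known as a product of the epithelial cell itself and as a regulator of bronchial tone and inflammation.

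The libraries held 8873160 to 10750283 counts each, so that 1 count was worth 0.093 to 0.113 counts per 1000000 (CPM). CRE replicate 3 stood apart, its counts giving a chi-square of 9.21 and 8.96 on average over genes against the other CRE libraries, while the other pairs within a group gave 1.77 to 2.55. Of 10 epithelial markers, 8 passed the filter on low counts, and the summed level of the list was 3726 to 4612 TPM (transcripts per 1000000, a unit corrected for transcript length) with CRE and 3701 to 3785 with CRE + VAF347. On normalized CPM, 5 of the 8 had groups apart and lower with VAF347, where 14.8% of all genes tested were. Another 1, *KRT18*, had groups apart and higher, as did 12.5% of all genes tested. The keratins *KRT7*, *KRT17* and *KRT19* had log2 fold changes of -0.29, -0.27 and -0.38, with adjusted p from edgeR of 0.0257, 0.024 and 0.0265. *KRT18*, *EPCAM* and *KRT8* had log2 fold changes of 0.11, 0.026 and -0.054. The part of these differences in the results was not tested. The basal cell markers *TP63* and *KRT14* had no more than 2 counts in any library, and 5 of 6 markers of secretory and ciliated cells had no more than 3. The AhR target *CYP1A1* had 5 to 8 counts with CRE and 412 to 460 with CRE + VAF347, so the labels and the agonist matched in all 6 libraries. The AhR targets *TIPARP*, *AHRR* and *NQO1* rose too, by 2.24, 2.16 and 0.86 on the log2 scale.

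The 9 genes fell into separate ranges of abundance. On TPM, which allows comparison between genes, *PTGES* was the highest in every library at 141 to 175, followed by *PTGR1* at 87.3 to 124 and *PTGES2* at 64.8 to 81.9. *PTGES* encodes the inducible microsomal PGE synthase, *PTGES2* a second membrane-associated PGE synthase, and *PTGR1* a reductase of prostaglandins and leukotriene B4. The ranges of these genes did not overlap, and *PTGES* ranked 1072 by mean TPM among 20020 protein-coding genes. The other 6 genes were at a mean TPM of 1.03 or less. *PTGS1* had 0.776 to 1.23 TPM, *PTGER4* 0.385 to 1.12, *PTGS2* 0.183 to 1.03, *PTGER2* 0.073 to 0.875 and *PLA2G4A* 0.155 to 0.441. Each of these neighbours in the order overlapped with the next. *HPGD* was at 0 in all 6 libraries.

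**Figure D1:**
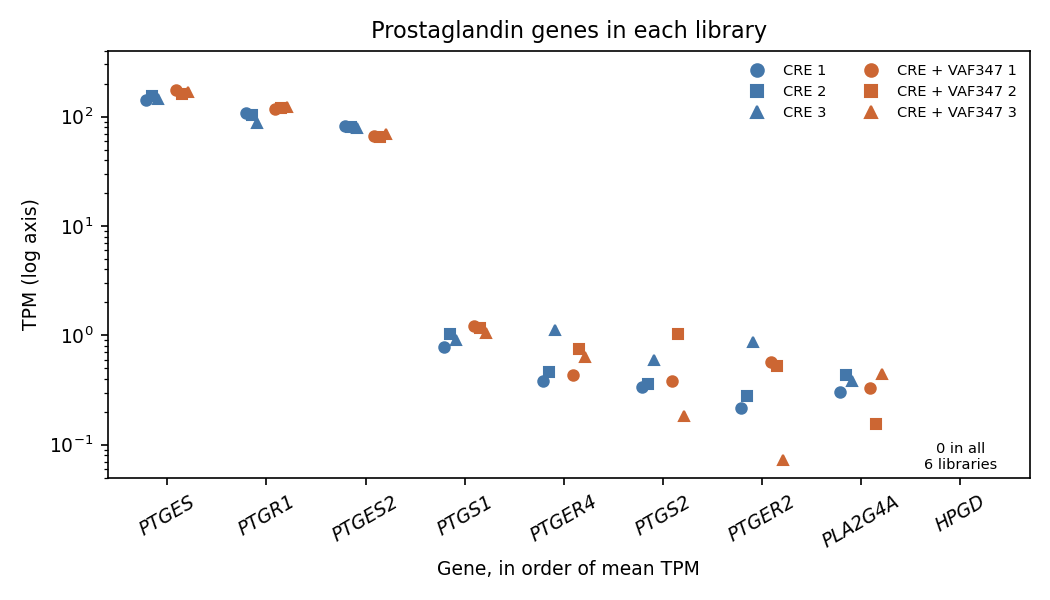
TPM of the 9 prostaglandin genes in each library, on a log axis, with symbols for the replicate and colors for the treatment. *PTGES*, *PTGR1* and *PTGES2* sat between 64.8 and 175 TPM, the next 5 genes sat at no more than 1.23 TPM, and *HPGD* had no counts.

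The step from arachidonic acid to PGH2 and the step from PGH2 to PGE2 thus differed in transcript level. The summed TPM of the cyclooxygenases *PTGS1* and *PTGS2* was 1.11, 1.39 and 1.5 with CRE and 1.61, 2.20 and 1.23 with CRE + VAF347. The summed TPM of the PGE synthases *PTGES*, *PTGES2* and *PTGES3* was 692, 689 and 789 with CRE and 761, 746 and 750 with CRE + VAF347. The ratio of the latter sum to the former was 339 to 623 in the 6 libraries, and the ranges of the groups overlapped in both sums.

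By position on GRCh38, 4 of the 9 genes lie on chromosome 9, where *PTGES* and *PTGES2* are 1.61 Mb apart. *PTGES* spans 129738331 to 129753042 and *PTGES2* 128120693 to 128128462, both on the minus strand. *PTGS1*, at 122370530 to 122395703 on the plus strand, and *PTGR1*, at 111549722 to 111599893 on the minus strand, are on the same chromosome. On chromosome 1, *PTGS2* (186671791 to 186680922, minus strand) and *PLA2G4A* (186828949 to 186988981, plus strand) are 148 kb apart. *HPGD* is on chromosome 4 from 174490175 to 174523154, *PTGER4* on chromosome 5 from 40679915 to 40693735, and *PTGER2* on chromosome 14 from 52314305 to 52328598.

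Because VAF347 acts on AhR, whose core recognition sequence is GCGTG, the promoter windows of the genes were read from RefSeq (GRCh38.p14), from 250 bases before to 50 bases after each annotated start. All 9 genes matched by symbol, with 13 windows. GCGTG was found on either strand in 6 windows, belonging to *PTGES*, *PTGES2*, *HPGD*, *PTGER2* and *PTGER4*, and in 36.5% of the 35116 windows of all genes. The windows printed here are those of the most abundant gene, *PTGES*, of the tested gene with the largest fold change between the groups, *PTGR1*, of the inducible cyclooxygenase *PTGS2*, and, for comparison, of the AhR target *CYP1A1*. They are written 5′ to 3′ on the strand of the gene, with GCGTG or its reverse complement in capitals.
PTGES, chr9:129752993-129753292, minus strand: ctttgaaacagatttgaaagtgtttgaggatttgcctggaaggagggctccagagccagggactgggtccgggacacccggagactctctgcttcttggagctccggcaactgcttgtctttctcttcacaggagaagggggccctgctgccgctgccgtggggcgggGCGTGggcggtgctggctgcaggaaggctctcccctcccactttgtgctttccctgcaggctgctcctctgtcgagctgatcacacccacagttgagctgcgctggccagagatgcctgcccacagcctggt
PTGR1, chr9:111599382-111599681, minus strand: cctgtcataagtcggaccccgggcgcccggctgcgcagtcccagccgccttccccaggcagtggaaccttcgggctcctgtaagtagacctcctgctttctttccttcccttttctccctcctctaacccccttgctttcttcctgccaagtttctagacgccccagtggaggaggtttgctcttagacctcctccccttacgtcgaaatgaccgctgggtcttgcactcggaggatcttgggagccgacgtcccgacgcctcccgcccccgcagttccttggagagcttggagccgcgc
PTGS2, chr1:186680374-186680673, minus strand: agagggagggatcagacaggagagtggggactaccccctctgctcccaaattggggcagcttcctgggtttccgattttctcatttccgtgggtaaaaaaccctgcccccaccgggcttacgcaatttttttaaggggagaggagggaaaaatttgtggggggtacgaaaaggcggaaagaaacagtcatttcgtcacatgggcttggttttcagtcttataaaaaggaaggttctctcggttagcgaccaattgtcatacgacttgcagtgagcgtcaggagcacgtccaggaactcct
CYP1A1, chr15:74725479-74725778, minus strand: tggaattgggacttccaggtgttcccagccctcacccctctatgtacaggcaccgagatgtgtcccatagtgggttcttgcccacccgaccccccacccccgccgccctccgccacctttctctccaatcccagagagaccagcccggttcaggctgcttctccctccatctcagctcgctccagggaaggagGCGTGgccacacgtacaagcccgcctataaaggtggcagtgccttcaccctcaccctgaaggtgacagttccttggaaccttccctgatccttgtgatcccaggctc

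The *PTGES* window held 1 copy of GCGTG, beginning at -82, and the *CYP1A1* window held 1 copy, beginning at -57, both on the strand of the gene and counted from a first transcribed base of 1. The windows of *PTGR1* and *PTGS2* held 0 copies. A TATA box (TATAAA, either strand) began at -32 in the *PTGS2* window and at -32 in the *CYP1A1* window. The same letters were also in a *PTGS1* window, at -208 on the opposite strand, and in 11.5% of all windows. The core of the antioxidant response element (TGACNNNGC, either strand) was found in windows of *PTGS1* and *PTGES2*, and in 13.3% of all windows. No match of one of these motifs overlapped a match of another in the windows of the 9 genes. These are matches of letters, and no binding was measured in these libraries.

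With VAF347, none of the prostaglandin genes was called. A call needed 2 things, a Benjamini-Hochberg adjusted p below 0.05 across all genes in the quasi-likelihood test of edgeR and an absolute log2 fold change (log2FC, CRE + VAF347 over CRE) over 0.5. Of the 9 genes, 5 passed the filter on low counts and 0 of these 5 were called, where 2.21% of the 15373 genes tested were. With no threshold on the fold change the count was also 0 of 5, where 5.42% of all genes tested passed. DESeq2's Wald test and limma on TPM also called 0. At an unadjusted p under 0.05 there were 3 of 5, *PTGES*, *PTGES2* and *PTGR1*, where 20.8% of all genes tested were. In these bulk libraries, fewer cells that express a gene and less RNA per cell cannot be told apart.

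**Figure D2:**
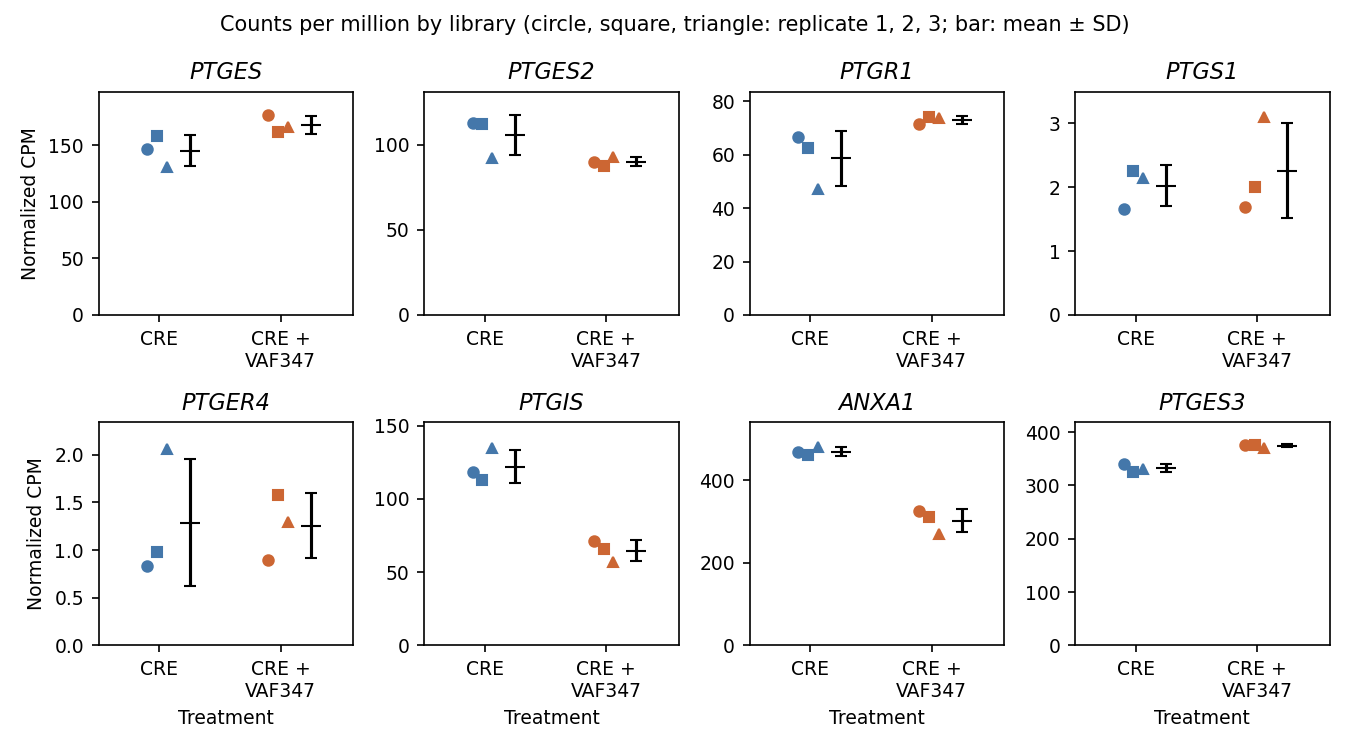
TMM-normalized CPM in each library for the 5 tested prostaglandin genes and for *PTGIS*, *ANXA1* and *PTGES3*, with the mean and SD (n = 3) beside each group; every axis starts at 0. CRE replicate 3 (blue triangle) was the lowest library for *PTGR1* and the highest for *PTGER4*, and the groups did not overlap for *PTGES*, *PTGR1*, *PTGES3*, *PTGIS* and *ANXA1*.

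The release of arachidonic acid was represented by *PLA2G4A*, which encodes the cytosolic phospholipase A2 that acts at intracellular membranes. It had 4, 6 and 5 counts with CRE and 4, 2 and 6 with CRE + VAF347, which is under the filter. The groups overlapped, and the ratio of the summed counts, scaled to depth, was 0.874, with an exact 95% interval of 0.374 to 2.00 that covers counting error only. Without CRE + VAF347 replicate 2 the ratio was 1.1, so no direction was detectable at this depth. Of 11 other genes at this step that were in the table, 7 were tested. Of these 7, 1 was lower and none was higher, where 1.71% and 0.501% of all genes tested were. The lower gene was *ANXA1*, which encodes annexin A1, a glucocorticoid-induced protein known as an inhibitor of phospholipase A2. *ANXA1* had 468, 460 and 481 CPM with CRE and 325, 311 and 271 with CRE + VAF347, so the groups were apart, and the log2FC of -0.64 (SE 0.072, adjusted p = 0.000639) passed. The phospholipase *PLAAT3*, the most abundant enzyme of this group at a mean of 146 TPM, had a log2FC of -0.10 with a 95% interval of -0.24 to 0.031.

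The cyclooxygenases were near the limit of detection. *PTGS1*, which encodes the constitutive enzyme, had 16, 23 and 23 counts with CRE and 15, 19 and 31 with CRE + VAF347. The groups overlapped, and its log2FC of 0.17 (95% interval -0.47 to 0.80, adjusted p = 0.784) left room for a change of 0.724-fold to 1.74-fold. Without CRE + VAF347 replicate 3, its log2FC was -0.14. With offsets for transcript length it was 0.36. *PTGS2*, which encodes the enzyme that cytokines and growth factors induce, had 6, 6 and 8 counts with CRE and 5, 16 and 3 with CRE + VAF347, and was not tested. The highest and the lowest of the 6 libraries were both in the CRE + VAF347 group. The ratio of its summed counts was 1.31, with an exact 95% interval of 0.694 to 2.50. It rested on CRE + VAF347 replicate 2, without which it was 0.657 (0.25 to 1.56).

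Of the 9 genes, the PGE synthases *PTGES* and *PTGES2* had the highest counts. *PTGES* had 147, 158 and 131 CPM with CRE and 177, 162 and 166 with CRE + VAF347. Every CRE + VAF347 library lay above every CRE library, the nearest being 162 and 158 CPM. Its mean was 145 ± 13.6 (SD, n = 3) for CRE and 168 ± 7.79 (SD, n = 3) after CRE + VAF347, and the log2FC of 0.21 (SE 0.075, 95% interval 0.047 to 0.38, adjusted p = 0.135) did not pass. *PTGES2* had 113, 112 and 92.1 CPM with CRE and 89.7, 87.6 and 92.9 with CRE + VAF347. CRE replicate 3 lay within the range of the other group, while CRE replicates 1 and 2 were above it. Its log2FC was -0.23 (SE 0.081, 95% interval -0.41 to -0.053, adjusted p = 0.131). Without CRE replicate 3 it was -0.32 (adjusted p = 0.00104), which did not reach the fold threshold, and with an offset for GC content it was -0.15.

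On TPM the *PTGES2* groups were apart, with 81.9, 80.2 and 78.0 for CRE and 66.7, 64.8 and 69.7 for CRE + VAF347. On that scale 4 of the 5 tested genes had groups that did not overlap, where 17.6% of all genes tested were apart. *PTGES*, *PTGR1* and *PTGS1* were higher with VAF347, as were 6.3% of all genes tested, and *PTGES2* was lower, as were 11.3%. On CPM 2 of the 5 were apart, where 27.3% of all genes tested were. These were *PTGES* and *PTGR1*, both higher with VAF347, as were 12.5% of all genes tested. On TPM, limma with a pseudocount of 1 and a filter at a mean TPM of 1 gave *PTGES2* an adjusted p of 0.297 and *PTGES* 0.461.

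*PTGES3*, not among the 9 genes, encodes a cytosolic PGE synthase that is also known as the HSP90 cochaperone p23. It was the most abundant of the PGE synthases on TPM, at 455.5 to 564.5, and had 340, 324 and 332 CPM with CRE and 376, 377 and 371 with CRE + VAF347. The CPM groups were apart, with a log2FC of 0.17 (95% interval 0.053 to 0.30, adjusted p = 0.0966) that did not pass. On TPM, CRE replicate 3 was the highest of the 6 libraries and the groups overlapped.

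Of 10 other terminal synthases and reductases, 7 were tested. Among the 7, 1 was lower and none was higher, where 1.71% and 0.501% of all genes tested were. *PTGIS*, which encodes prostacyclin synthase, had 119, 113 and 135 CPM with CRE and 71.1, 65.7 and 57.2 with CRE + VAF347. Every CRE library was above every CRE + VAF347 library, and the log2FC was -0.92 (SE 0.091, adjusted p = 0.000254), or 0.529-fold. It passed both thresholds when each library was left out in turn, with adjusted p of 0.00358 or less. *PTGIS* is best known from endothelial cells, and of the endothelial markers *CDH5* had a log2FC of -0.84 and *VWF* of -1.45, both called. *VWF* was low, at 10 to 39 counts per library, and *PECAM1* had no more than 3 counts in any library. The list of 13 markers of fibroblasts, endothelial cells and blood cells had 6 genes at no more than 3 counts in every library, and a summed level of 50.9 to 52.4 TPM with CRE and 33.2 to 43.5 with CRE + VAF347. The most abundant of the 13 were *CD68* and *COL1A1*, which are not endothelial markers, at means of 20.3 and 17.7 TPM. The part of the 13 markers in the *PTGIS* result was not tested. *AKR1B1*, an aldo-keto reductase with PGF synthase activity, and *CBR1*, a carbonyl reductase that acts on PGE2, had log2FC values of -0.068 (95% interval -0.22 to 0.089) and 0.036 (-0.13 to 0.20). *PTGDS*, *HPGDS* and *TBXAS1*, the PGD2 and thromboxane synthases, had no more than 3 counts in any library.

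**Figure D3:**
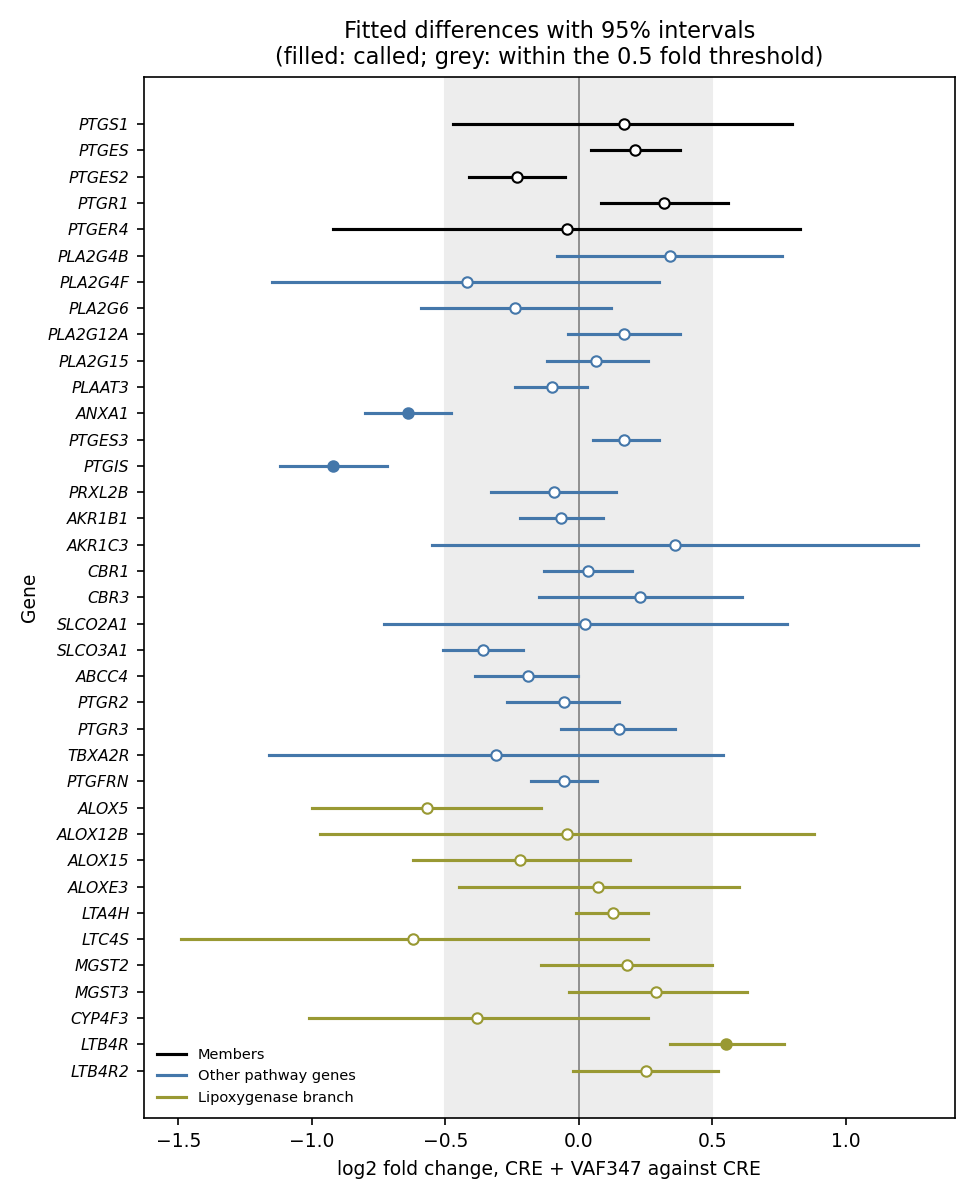
Fitted log2FC values (points) with 95% intervals (lines) of the tested prostaglandin genes, the other tested genes of the pathway and the lipoxygenase branch; filled points passed both thresholds. *ANXA1* and *PTGIS* were lower, *LTB4R* was higher, and the intervals of *PTGS1* and *PTGER4* were the widest among the tested genes of the 9.

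Breakdown was represented by *HPGD*, the dehydrogenase that starts the inactivation of PGE2, and *PTGR1*. *HPGD* had 0 counts in each of the 6 libraries, which allows a level of up to 0.0507 CPM over the 6 libraries together, for counting error only. *PTGR1* had the largest absolute log2FC of the tested genes of the 9. It had 66.6, 62.4 and 47.0 CPM with CRE and 71.5, 74.2 and 73.6 with CRE + VAF347. The CRE + VAF347 libraries were close together and above all CRE libraries, and CRE replicate 3 was the lowest. Its mean was 58.7 ± 10.3 (SD, n = 3) for CRE and 73.1 ± 1.45 (SD, n = 3) after CRE + VAF347, and the log2FC of 0.32 (SE 0.11, 95% interval 0.084 to 0.56, adjusted p = 0.116) did not pass. Without CRE replicate 3 the log2FC was 0.18 with an adjusted p of 0.0788. *PTGR1* overlaps *ZNF483* on the opposite strand over 28123 bp, and *ZNF483* had a log2FC of 0.34 with an adjusted p of 0.0701; whether counting used strand is not stated.

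Of 5 other transporters and breakdown enzymes, all 5 were tested and none was called, where 2.21% of all genes tested were. *SLCO3A1*, a transporter of prostaglandins, had an adjusted p from edgeR of 0.0101 at a log2FC of -0.36, under the fold threshold. *PTGR2* and *PTGR3*, which reduce 15-keto prostaglandins, had log2FC values of -0.057 and 0.15. Across the wider pathway, 21 of 34 genes in the table were tested. Among the 21, 2 were lower and 0 higher, where 1.71% and 0.501% of all genes tested were. The median log2FC of the 21 was -0.057, against 0.0096 for all genes tested and 0.17 for the 5 tested genes of the 9. For these 5, the median is the value of *PTGS1* (95% interval -0.47 to 0.80), with 3 of them positive and 2 negative.

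The EP receptors *PTGER2* and *PTGER4*, which raise cyclic AMP when they bind PGE2, were both at low counts. *PTGER2* had 3, 4 and 11 counts with CRE and 7, 7 and 1 with CRE + VAF347. Its groups overlapped, it was not tested, and the ratio of the summed counts was 0.910 with an exact 95% interval of 0.427 to 1.91. Without CRE replicate 3, which held 11 of the 18 CRE counts, the ratio was 1.53 (0.586 to 4.42), and without CRE + VAF347 replicate 3 it was 1.31 (0.603 to 2.79). *PTGER4* had 8, 10 and 22 counts with CRE and 8, 15 and 13 with CRE + VAF347. CRE replicate 3 was the highest library for both genes. The log2FC of *PTGER4* was -0.044 (95% interval -0.92 to 0.83, adjusted p = 0.967), and 0.47 without CRE replicate 3 (adjusted p = 0.554). All of *PTGER4* lies within *TTC33* on the opposite strand, which had 145 to 168 counts per library, and whether counting used strand is not stated. Of the 8 other receptor genes, *PTGER1*, *PTGER3*, *PTGFR*, *PTGIR*, *PTGDR* and *PTGDR2* had no more than 3 counts in any library. *TBXA2R*, the thromboxane receptor, and *PTGFRN*, a partner of the PGF receptor, were tested and not called.

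**Figure D4:**
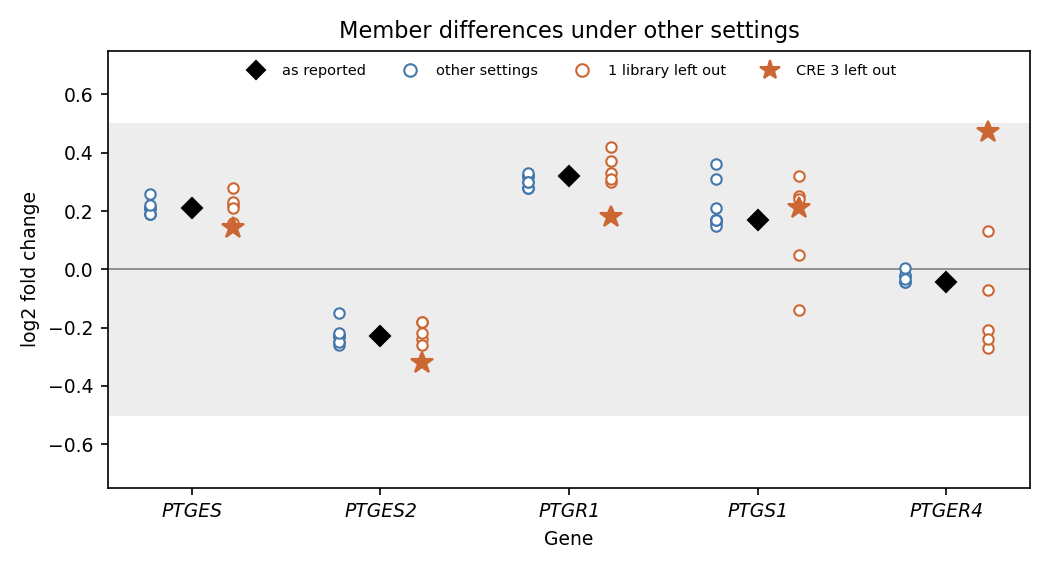
Log2FC values of the 5 tested prostaglandin genes as reported (diamonds), under other settings (blue circles) and with 1 library left out (orange; star, without CRE replicate 3); the grey band spans the fold threshold of 0.5 in both directions. No value left the band, *PTGES*, *PTGES2* and *PTGR1* kept their sign, and *PTGER4* moved from -0.044 to 0.47 without CRE replicate 3.

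Genes of the cyclic AMP response were described because EP2 and EP4 signal through this messenger. Most of the list are genes that it commonly induces, while *CREB1*, *CREB3*, *CRTC1* and *CRTC2* encode transcription factors and coactivators, most of which mediate the response. Of 20 genes on the list, 16 were tested. Among the 16, 0 were lower and 2, *FOSL1* and *AREG*, were higher, where 1.71% and 0.501% of all genes tested were. The median log2FC of the list was 0.013. On CPM, 6 of the 16 had groups apart and higher with VAF347 and 1 had groups apart and lower, where 12.5% and 14.8% of all genes tested were. The 6 were *FOSL1*, *AREG*, *NR4A2*, *NR4A3*, *CREB1* and *CREB3*, and the lower gene was *CRTC1*. The factors *CREB1* and *CREB3* had log2FC values of 0.095 and 0.22, and *CRTC1* of -0.21, none of them called. *FOSL1*, an AP-1 subunit, had 20.0, 22.5 and 22.9 CPM with CRE and 34.3, 38.2 and 40.01 with CRE + VAF347, a log2FC of 0.78 (SE 0.091, adjusted p = 0.000649). *AREG*, a ligand of the epidermal growth factor receptor, had 12.5 to 14.6 CPM with CRE and 19.8 to 25.9 with CRE + VAF347. Both genes are also induced through other pathways. Among the orphan nuclear receptors that cyclic AMP induces, none passed. *NR4A1* had a log2FC of -0.059, *NR4A2* of 0.48 (adjusted p = 0.345) and *NR4A3* of 0.89 (adjusted p = 0.0977), and the CPM groups were apart and higher for *NR4A2* and *NR4A3*.

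The lipoxygenase branch, which turns the same arachidonic acid into leukotrienes, was compared as the pathway most like this one. Of its 17 genes, 11 were tested, 0 were lower and 1 was higher, where 1.71% and 0.501% of all genes tested were, with a median log2FC of 0.073. The higher gene was *LTB4R*, a receptor of leukotriene B4, with 13.5, 14.4 and 15.1 CPM with CRE and 22.1, 21.0 and 20.2 with CRE + VAF347. Its log2FC was 0.55 (SE 0.10, adjusted p = 0.00718), but with offsets for transcript length it was 0.46 with an adjusted p of 0.211. *PTGR1*, which also inactivates leukotriene B4, joins the branches.

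Over the 6 libraries, the genes with the pattern most like that of *PTGR1* were *SPC25*, *MAFK* and *PTTG1*. The measure was the root mean square distance between mean-centred log2 CPM values, which was 0.024, 0.031 and 0.046. As with *PTGR1*, CRE replicate 3 was the lowest library for each, at 36.4, 64.3 and 86.8 CPM, and none of the 3 was called, with log2FC values of 0.28, 0.27 and 0.37. Since the 3 genes were picked for likeness over these same libraries, the shared low library and similar log2FC values follow from the choice.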

How the data were processed

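Libraries were assigned to groups and replicates from the labels, which also name the table columns, and 0 columns of other samples were present. Per the labels and the methods of the study, poly(A)-enriched RNA was sequenced as read pairs and quantified with Salmon on hg38; the Salmon version, annotation and strand setting are not given in the sources used here. The authors deposited expected counts, unscaled and named by gene symbol, and TPM values that sum to 1000000 in each library. A deposited table of the authors' own fold changes and p-values was not used. All 61228 gene names are in GENCODE v44 (GRCh38), which gave positions and overlaps.

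Since 14.5% of the expected counts had decimals, all were rounded before use. Low counts were filtered with filterByExpr of edgeR 4.0.16 (R 4.3.3), libraries were scaled by TMM, and the 15373 genes that remained were compared by the quasi-likelihood test and adjusted by Benjamini-Hochberg. CPM values are TMM-normalized. The standard error was the absolute log2FC divided by the square root of F, and 95% intervals used the total degrees of freedom of the fit. The fold threshold of 0.5 is that of the study. An exact permutation test of 3 libraries against 3 cannot go below 0.1, so each gene was judged by the fit across all genes. For genes under the filter, summed counts of the groups were compared by an exact binomial interval that assumes counting error only.

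The 9 genes and all gene lists were chosen with earlier results of these data known, so no p is given over a list. The genes named are the 9; every gene of the other lists that was called; the 5 most abundant tested genes of the wider pathway; *CYP1A1* and *CYP1B1* as the check of the agonist; and the 3 genes most like the member with the largest log2FC. Other genes are named only to account for a list, an overlap or a marker, after their values were seen. *CYP1B1* rose as well (log2FC 3.14). DESeq2 1.42.0, limma 3.58.1 on log2(TPM + 1) and log2(TPM + 0.1), other normalizations and filters, offsets for transcript length, the replicate number as a block and leaving out each library were alternatives; an offset for GC content, and leaving out each library for the genes not tested, were added after the data were seen. The scripts were tested on simulated data. The promoter windows of RefSeq were used for 9 of 9 genes. Other experiments of the study were not analysed here.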

Additional observations from a re-analysis of the deposited data

How the results depend on the processing

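The count of called prostaglandin genes was 0 in all 17 alternatives. Among the 5 tested, *PTGES*, *PTGES2* and *PTGR1* kept their sign and stayed under the fold threshold, with log2FCs of 0.14 to 0.28, -0.32 to -0.18 and 0.18 to 0.42 when each library was left out. Without CRE replicate 3, *PTGES2* had an adjusted p of 0.00104. With no filter on low counts, *PTGR1* and *PTGES2* reached adjusted p of 0.0029 and 0.0385, at under the fold threshold. *PTGS1* ran from -0.14 (without CRE + VAF347 replicate 3) to 0.32 and *PTGER4* from -0.27 to 0.47 (without CRE replicate 3) when libraries were left out, and *PTGER4* was 0.13 without CRE + VAF347 replicate 1 and 0.0058 with the GC offset. DESeq2 gave *PTGER4* no adjusted p. For the genes not tested, the ratio of summed counts ran from 0.657 to 1.77 for *PTGS2*, 0.673 to 1.1 for *PLA2G4A* and 0.708 to 1.53 for *PTGER2* when each library was left out, an alternative chosen after seeing the data.

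Over all genes, the 340 calls (263 lower, 77 higher) became 598 with no filter (411 and 187), 84 with limma on log2(TPM + 1) (50 and 34) and also 84 on log2(TPM + 0.1) (52 and 32), 32 with limma and no filter (12 and 20), 218 with transcript length offsets (154 and 64) and 833 at any fold change (626 and 207). Leaving out CRE + VAF347 replicate 3 gave the fewest, 205, and leaving out CRE replicate 3 the most, 390. The split with the GC offset was 225 and 92. The wider pathway kept 2 calls when each library was left out and had 0 with limma and no filter. The lipoxygenase branch had 2 calls with no filter, 0 with each limma setting and 0 with transcript length offsets; the cyclic AMP list had 1 with limma on filtered TPM at either pseudocount and 0 without a filter. *ANXA1*, *PTGIS*, *FOSL1* and *AREG* passed in all fits of counts and were lost with limma and no filter, with adjusted p of 0.111, 0.122, 0.112 and 0.158; *AREG* was also lost with filtered TPM (0.0531 and 0.0556). The causes were not tested.

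Between the groups, same-numbered libraries had correlations of their deviations from the group mean of 0.0529, 0.0327 and 0.0154. Libraries with different numbers gave lower values, from -0.0417 to 0.0103. Correlations this small cannot decide whether the replicate numbers pair the libraries. With the replicate block, 0 prostaglandin genes, 2 genes of the wider pathway and 319 of all genes were called. *PTGS1*, *PTGS2*, *PLA2G4A*, *PTGER2* and *PTGER4* were at low counts, 1 to 31 per library, and the part of depth in their spread was not tested.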

Other observations

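Counts and TPM ranked the libraries differently for *PTGS1*. Its counts per TPM, relative to the median gene of the library, were 1.62, 1.67 and 2.05 with CRE and 1.06, 1.33 and 2.34 with CRE + VAF347, a range of 2.21-fold, while *PTGES*, *PTGES2* and *PTGR1* varied by 1.02-fold, 1.03-fold and 1.05-fold. This quantity follows the mean length of the transcripts that Salmon credits with reads. *PTGS1* TPM was 0.776, 1.03 and 0.914 with CRE and 1.23, 1.17 and 1.04 with CRE + VAF347, so that the groups were apart on TPM and overlapped on CPM.

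Several values were singled out after they were seen. *NR4A3*, an orphan nuclear receptor of the cyclic AMP list, had 14, 10 and 17 counts with CRE and 25, 26 and 20 with CRE + VAF347, so the groups were apart. *ALOX5*, the enzyme that starts leukotriene synthesis, had a log2FC of -0.57 with an adjusted p of 0.125, and its partner *ALOX5AP* had no more than 2 counts in any library. The antisense lncRNA *PACERR*, which overlaps the start of *PTGS2* by 322 bp, had 0 to 2 counts per library. *PTGES2-AS1*, which lies 66 bp from *PTGES2* on the opposite strand, had 5, 19 and 21 counts with CRE and 11, 7 and 16 with CRE + VAF347, so the groups overlapped.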
